A study of Homo sapiens with 24 samples.

Results

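The genes of the tumor necrosis factor (TNF) ligand and receptor superfamily were examined as targets of the S100A8 and S100A9 proteins in breast epithelial cells. The family was taken by gene symbol, as every protein-coding gene of the GENCODE annotation on hg19 whose symbol starts with TNFSF or TNFRSF and a digit, together with TNF, LTA, LTB, LTBR, CD40, CD40LG, CD27, CD70, FAS, FASLG, NGFR and EDAR. This gave 45 genes of 20098, of which 18 encode ligands, 8 encode receptors with a death domain, 4 encode decoy receptors and 15 encode other receptors. TNFSF12-TNFSF13, which counts among the ligands, is a read-through gene that spans TNFSF12 and TNFSF13, so the 3 share most of their peaks.

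The cells were MCF-10A, an established line of mammary epithelial cells that is not transformed, carrying ER-Src, a fusion of the v-Src oncoprotein to the ligand-binding domain of the estrogen receptor. In every group the cells also expressed S100A8 or S100A9 with a Flag tag from a stably integrated retroviral vector, so the peaks are those of the tagged, added protein. Cells were given 1 μM 4-hydroxytamoxifen (TAM) for 24 hours, which switches on ER-Src and transforms them, or ethanol (EtOH), the vehicle. Chromatin was fixed by protein-protein cross-linking and then by formaldehyde, and was precipitated with an antibody against Flag. The groups held 2 libraries of S100A8 in EtOH, 3 of S100A8 in TAM, 3 of S100A9 in EtOH and 3 of S100A9 in TAM.

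Each library was a list of peaks, places where chromatin immunoprecipitation followed by sequencing (ChIP-seq) gave more reads than the background. Only peaks with a q value of at most 1e-07 were scored. The lists then held from 1853 to 4609 peaks in the 5 EtOH libraries and from 21518 to 40735 in the 6 TAM libraries. The shortest list was replicate 2 of S100A9 in EtOH and the longest was replicate 3 of S100A9 in TAM. Read numbers are unknown from the lists, so list length cannot be told apart from sequencing depth or from the efficiency of the precipitation. The paper also reports that nuclear levels of the tagged proteins rose strongly in TAM, and relates the larger number of sites to that rise. Which of these lengthened the TAM lists was not tested. A peak was assigned to a gene by its summit, the base of highest signal. A summit from 1500 bp before to 250 bp after a transcription start was at the promoter, and a summit at the promoter, in the gene body or within 20 kb of it was at the locus.

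TNF superfamily ligands are mostly trimeric proteins on the surface of a cell or released from it, and their receptors pass the signal on through adaptor proteins. Receptors with a death domain can recruit caspases and start apoptosis, most others recruit TRAF proteins and activate NF-kB and stress kinases, and decoy receptors bind a ligand without signaling. Many ligands are made by leukocytes, while FAS, the TRAIL receptors, TNFRSF1A, LTBR and TNFRSF12A are widely made by epithelial cells. S100A8 and S100A9 are calcium-binding proteins best known as inflammatory signals from myeloid cells, and neither has a known DNA-binding domain.

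Peaks of at least 2 replicates of a group were merged across groups into 30322 sites, of which 77 lay at the loci of the family. Most of the sites were away from promoters, and the sequences at 7 of them are shown here because the sites described for each gene below refer to them. Each is the 101 bases of the hg19 plus strand centered on the site's summit, read from the GRCh37 assembly. Capitals mark exact matches, on either strand, to the AP-1 motif TGACTCA, whose reverse complement is TGAGTCA, or to the KLF/SP1 motif CCCCGCCC, whose reverse complement is GGGCGGGG. The TNFRSF21 and TNFRSF19 sequences are at the genes' own promoters. All 7 were chosen after their values were seen, the other 5 for their AP-1 match. Of these, 4 are distal, and the one in TNFRSF12A also lies at the promoter of the neighboring gene CLDN6 and is counted below as a promoter site.
TNFRSF1A, intron, chr12:6445500-6445600: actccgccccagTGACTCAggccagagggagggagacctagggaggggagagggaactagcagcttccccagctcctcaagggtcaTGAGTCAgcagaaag
TNFRSF12A, intron and promoter of CLDN6, chr16:3070912-3071012: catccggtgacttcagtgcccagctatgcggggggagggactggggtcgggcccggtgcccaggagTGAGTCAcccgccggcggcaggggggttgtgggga
TNFRSF6B, upstream in an intron of RTEL1, chr20:62314041-62314141: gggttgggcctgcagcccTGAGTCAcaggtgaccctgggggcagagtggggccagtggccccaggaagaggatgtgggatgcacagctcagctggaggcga
TNFSF10, upstream and intergenic, chr3:172259200-172259300: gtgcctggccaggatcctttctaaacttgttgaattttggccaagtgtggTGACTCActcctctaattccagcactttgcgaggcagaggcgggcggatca
NGFR, downstream and intergenic, chr17:47601184-47601284: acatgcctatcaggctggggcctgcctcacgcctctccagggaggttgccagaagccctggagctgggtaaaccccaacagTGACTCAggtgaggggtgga
TNFRSF21, promoter, chr6:47277717-47277817: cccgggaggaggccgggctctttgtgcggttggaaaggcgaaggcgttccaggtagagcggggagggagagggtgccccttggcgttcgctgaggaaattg
TNFRSF19, promoter, chr13:24153353-24153453: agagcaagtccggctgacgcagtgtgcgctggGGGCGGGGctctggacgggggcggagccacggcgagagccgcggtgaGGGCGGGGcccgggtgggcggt

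The share of family promoters with an S100A8 or S100A9 peak was below that of all promoters in most libraries, while the share of family loci was not. In the EtOH libraries the share of family genes with a promoter peak ran from 0% to 13.3%, with a median of 4.44%, against 5.97% to 12.2% of all genes, with a median of 11.3%. In the TAM libraries it ran from 22.2% to 35.6%, with a median of 25.6%, against 33.3% to 49.0% of all genes, with a median of 38.1%. The family was below all genes in 10 of 11 libraries, the exception being replicate 3 of S100A9 in EtOH. For peaks anywhere at the locus, the family was below all genes in only 3 of 11 libraries. In TAM 66.7% to 86.7% of the family had a locus peak, against 66.6% to 81.1% of all genes.

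**Figure D1:**
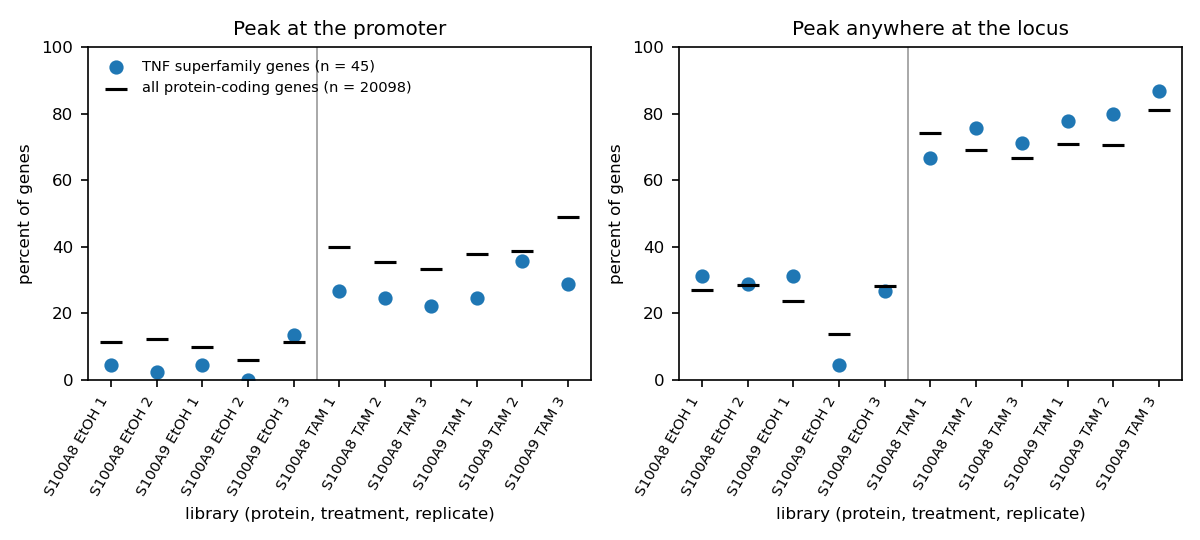
Percent of genes with at least 1 peak at the promoter (left) and anywhere at the locus (right) in each library. Blue points are the 45 TNF superfamily genes and black bars are all 20098 protein-coding genes. At the promoter the family lies below all genes in 10 of 11 libraries, and at the locus in 3 of 11.

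A promoter was counted as confident in a group when at least 2 of its libraries had a peak there. No family promoter reached this in either EtOH group, where 4.61% of all genes did so for S100A8 and 5.69% for S100A9. In TAM, 11 family promoters (24.4%) were confident for S100A8, against 36.7% of all genes. For S100A9 in TAM, 14 (31.1%) were confident, against 43.0% of all genes. By the same rule applied to the locus, 8 family genes (17.8%) were confident for S100A8 in EtOH against 14.6% of all genes, and 6 (13.3%) for S100A9 in EtOH against 17.8%. In TAM, 34 family loci (75.6%) were confident for S100A8 against 72.0% of all genes, and 37 (82.2%) for S100A9 against 76.3%. These shares are descriptions, and the difference between the family and all genes was not tested.

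The family's promoters were also poorer in CpG dinucleotides than most. The observed over expected CpG ratio was taken over the 250 bp before and 50 bp after each transcription start of a gene. The highest ratio among its starts was kept, which need not be that of the start with a peak. It was 0.6 or above at 17 of 45 family promoters (37.8%) and at 72.0% of all promoters. Among promoters at or above this ratio, 76.5% of the family and 77.9% of all genes had a peak in at least 1 library. Below it, 28.6% of the family and 17.8% of all genes did. Peaks in 6 or more libraries were found at 17.6% of the family and 30.6% of all genes at or above the ratio, and at 3.57% and 2.75% below it. TNFRSF6B, with a ratio of 0.23, and TNFRSF1A, with a ratio of 0.26, were family promoters low in CpG that had peaks in 7 and 4 libraries. At or above 0.6, 4 family promoters had no peak in any library, those of TNFRSF1B, TNFRSF13C, TNFRSF18 and TNFRSF25.

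**Figure D2:**
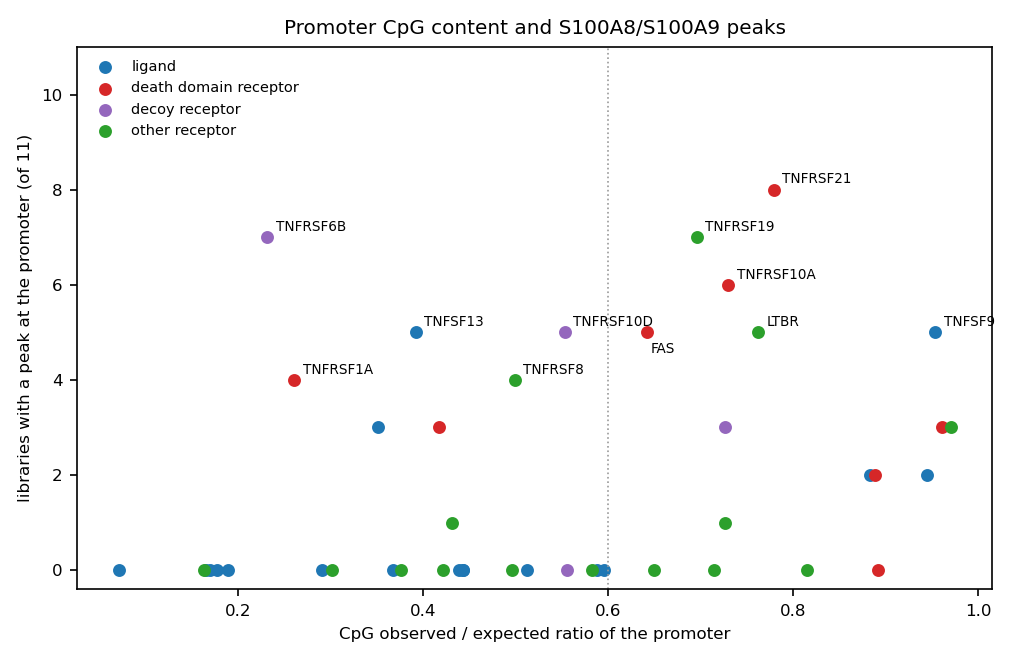
Number of libraries with a promoter peak (vertical axis, of 11) against the CpG observed over expected ratio of the promoter (horizontal axis) for the 45 genes, colored by role. The dotted line is the ratio of 0.6. TNFRSF21 is highest with 8 libraries, and TNFRSF6B reaches 7 libraries at a ratio of 0.23.

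Over all libraries, 21 of 45 family genes (46.7%) had a promoter peak at least once, against 61.1% of all genes. With every peak as deposited this gap was not seen, since 26.7% of the family and 25.6% of all genes had no promoter peak in any library, while 20% and 38.8% had one in all 6 TAM libraries. The genes with a promoter peak at a q value of at most 1e-07 were 7 of 8 death domain receptors, 3 of 4 decoy receptors, 6 of 15 other receptors and 5 of 18 ligands. The 88 promoter peaks had a median fold enrichment over background of 8.59, between 5.09 and 18.8, and 76 of them had their summit within 200 bp of a transcription start. Promoter peaks in all 6 TAM libraries were found at TNFRSF21, TNFRSF6B and TNFRSF19, 6.67% of the family against 13.9% of all genes. In EtOH, 9 family genes (20%) had a promoter peak, against 29.0% of all genes, 7 of them in 1 library and 2, TNFRSF10A and TNFRSF21, in 2 libraries.

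**Figure D3:**
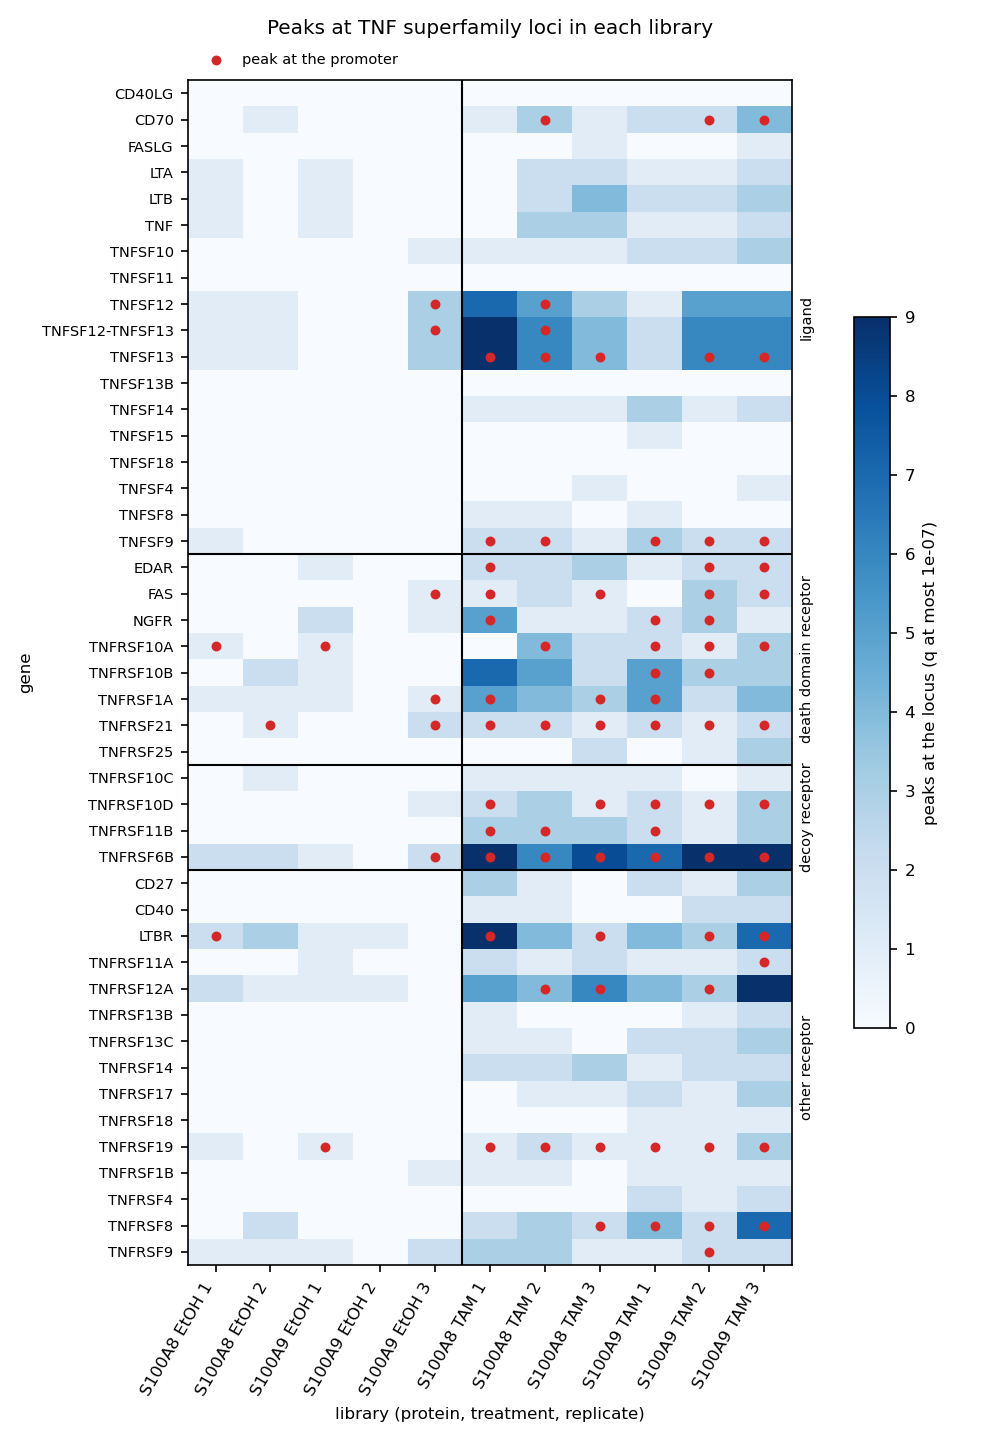
Peaks with q at most 1e-07 at each of the 45 loci (rows, by role) in each of the 11 libraries (columns, EtOH left of the line). Blue depth is the number of peaks at the locus and a red point marks a peak at the promoter. The TNFRSF6B row holds 6 to 9 peaks in every TAM library and 0 to 2 in every EtOH library.

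Among the death domain receptors, TNFRSF21 had the most regular promoter peak of the family. TNFRSF21, also called death receptor 6, lies at chr6:47199268-47277641. In EtOH its promoter peak had a fold enrichment of 10.4 in replicate 2 of S100A8 and 9.13 in replicate 3 of S100A9. In TAM the values were 7.34, 13.9 and 8.22 for S100A8 and 12.6, 12.1 and 16.4 for S100A9. The 2 EtOH values lie inside the TAM range, and in the other 3 EtOH libraries no peak was listed there even without the q threshold. The sequence printed for this promoter, 50 bp on either side of the summit, holds none of the motifs searched. Within 100 bp of the summit there was a KLF/SP1 match, and the site is counted with these below. Locus peaks of TNFRSF21 numbered 0 and 1 for S100A8 and 0, 0 and 2 for S100A9 in EtOH, and 1 to 2 in each TAM library, so the treatments overlapped.

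TNFRSF10A and TNFRSF10B encode the TRAIL receptors that start apoptosis. The TNFRSF10A promoter had a peak in replicate 1 of each protein in EtOH, with fold enrichments of 8.35 for S100A8 and 7.56 for S100A9. In TAM it had a fold enrichment of 8.21 in replicate 2 of S100A8 and of 8.62, 9.28 and 7.67 in the S100A9 libraries. Its locus peaks numbered 1 and 0 for S100A8 and 1, 0 and 0 for S100A9 in EtOH, and 0, 4 and 2 for S100A8 and 2, 1 and 3 for S100A9 in TAM. At TNFRSF10B the locus peaks numbered 0 and 2 for S100A8 and 1, 0 and 0 for S100A9 in EtOH, and 7, 5 and 2 for S100A8 and 5, 3 and 3 for S100A9 in TAM. The S100A8 groups touched at 2 peaks, and the adjusted p was 0.0618. Its own promoter had a peak only in replicates 1 and 2 of S100A9 in TAM. The TNFRSF10B site called in most libraries, 1 in EtOH and 5 in TAM, lay 15348 bp upstream at the promoter of another gene. Fold enrichments there ran from 5.66 to 12.7.

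TNFRSF1A, the main receptor for TNF, lies at chr12:6437923-6451280. It had 1 and 1 locus peaks for S100A8 and 1, 0 and 1 for S100A9 in EtOH. In TAM it had 5, 4 and 3 for S100A8 and 5, 2 and 4 for S100A9, and each protein's treatments did not overlap. Its sites called most often were each called in 7 libraries. One, 19956 bp before a start and in an intron of SCNN1A, was called in 2 EtOH and 5 TAM libraries. The other was in an intron of the gene, 5598 bp after a start, and is the one printed above with 2 AP-1 matches. It was called in all 6 TAM libraries, with fold enrichments from 6.51 to 15.1, and in 1 EtOH library, replicate 1 of S100A8, at 9.01.

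FAS, the receptor for FASLG, had a promoter peak in 4 TAM libraries and in replicate 3 of S100A9 in EtOH. EDAR, the ectodysplasin receptor, and NGFR, the p75 neurotrophin receptor, each had one in 3 TAM libraries. NGFR had the only family site called more often in EtOH, an intronic site 4251 bp after a start with peaks in 2 EtOH libraries and none in TAM. TNFRSF25, or death receptor 3, was the death domain receptor without a promoter peak, and its 1 site, in 3 TAM libraries, was in an intron of the neighboring gene PLEKHG5.

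Of the decoy receptors, TNFRSF6B had the densest locus of the family. TNFRSF6B, also called decoy receptor 3, which binds FASLG, TNFSF14 and TNFSF15, lies at chr20:62328005-62330037 between RTEL1 and ARFRP1. Its locus peaks numbered 2 and 2 for S100A8 and 1, 0 and 2 for S100A9 in EtOH. In TAM they numbered 9, 6 and 8 for S100A8 and 7, 9 and 9 for S100A9, far from the EtOH values. The 7 merged sites spread from 13914 bp upstream to 11311 bp downstream of its start, and 4 of them were called in all 6 TAM libraries. The strongest of these sites, over an intron of ARFRP1 at chr20:62330049-62334799, was called in 2 EtOH libraries, with fold enrichments of 10.6 for S100A8 and 9.94 for S100A9. In TAM its values were 18.2, 14.4 and 15.3 for S100A8 and 14.5, 13.4 and 6.97 for S100A9. Single peaks there were as wide as 4.69 kb. The RTEL1 site, printed above with its AP-1 match, was called in all 6 TAM libraries and in no EtOH library, with fold enrichments from 7.61 to 14.6. The promoter had fold enrichments of 8.07, 6.89 and 7.42 for S100A8 and 7.03, 14.8 and 8.99 for S100A9 in TAM, and of 9.86 in 1 EtOH library, replicate 3 of S100A9.

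TNFRSF11B, or osteoprotegerin, which binds TNFSF11, had no locus peak in any EtOH library. TAM gave 3 peaks in each S100A8 library and 2, 1 and 3 in the S100A9 libraries. Its most regular site, in all 6 TAM libraries with fold enrichments from 5.50 to 15.6, was intergenic and downstream of the gene. TNFRSF10D, a TRAIL decoy, had a promoter peak in 5 TAM libraries. The merged site there was called in all 6 TAM libraries and in replicate 3 of S100A9 in EtOH, where the summit, 276 bp after the start, was just outside the promoter window. TNFRSF10C, the other TRAIL decoy, had none in any library. TNFRSF10A, TNFRSF10B, TNFRSF10C and TNFRSF10D are neighbors on chromosome 8, and 2 of their sites were each counted at a pair of these genes.

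Among the other receptors, TNFRSF12A and LTBR had many locus sites, and TNFRSF19 had the most regular promoter peak. TNFRSF12A, the receptor for TNFSF12 (TWEAK), lies at chr16:3068446-3072384 and had 6 sites. Its locus peaks numbered 2 and 1 for S100A8 and 1, 1 and 0 for S100A9 in EtOH, and 5, 4 and 6 for S100A8 and 4, 3 and 9 for S100A9 in TAM, without overlap. The printed intronic site was called in all 6 TAM libraries, with fold enrichments from 7.85 to 13.7, and in 1 EtOH library at 7.37. The site called most often, in 2 EtOH and 6 TAM libraries, was at the shared promoter of HCFC1R1 and THOC6, 3912 bp downstream of a TNFRSF12A start. Fold enrichments at that site ran from 6.76 to 14.1.

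LTBR, the lymphotoxin beta receptor, had 2 and 3 locus peaks for S100A8 and 1, 1 and 0 for S100A9 in EtOH. TAM gave 9, 4 and 2 for S100A8 and 4, 3 and 7 for S100A9, and the S100A8 treatments overlapped. Its site called in most libraries, 2 in EtOH and 6 in TAM, was in the gene 775 bp after a start. It was also at the promoter of SCNN1A, with fold enrichments from 4.73 to 11.7. TNFRSF19, or TROY, lies at chr13:24144509-24250243. Its promoter had peaks in replicate 1 of S100A9 in EtOH, at a fold enrichment of 7.92, and in every TAM library. The peaks fell at 2 neighboring sites, 444 bp and 96 bp before a start, called in 4 and 3 TAM libraries. The second is printed above with 2 KLF/SP1 matches, while the first, called in more libraries, held none of the motifs searched. Its locus peaks numbered 1 and 0 for S100A8 and 1, 0 and 0 for S100A9 in EtOH, and 1, 2 and 1 for S100A8 and 1, 1 and 3 for S100A9 in TAM.

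TNFRSF8, or CD30, a marker of activated lymphocytes, had 0 and 2 locus peaks for S100A8 and none for S100A9 in EtOH. In TAM it had 2, 3 and 2 for S100A8 and 4, 2 and 7 for S100A9, so the S100A8 treatments met at 2 peaks. Its most regular site, at the last part of the gene, was called in 1 EtOH and 6 TAM libraries with fold enrichments from 6.39 to 15.1. TNFRSF14, the receptor for TNFSF14, had no EtOH peak, and in TAM 2, 2 and 3 for S100A8 and 1, 2 and 2 for S100A9. All of its sites were upstream of the gene, 8594 bp and 7525 bp before a start, and its promoter had no peak.

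The remaining receptors are best known from lymphocytes or antigen-presenting cells, except TNFRSF11A (RANK), the receptor for TNFSF11. TNFRSF11A and TNFRSF9 (4-1BB) had a promoter peak in 1 TAM library each. CD27, CD40, TNFRSF1B, TNFRSF4 (OX40), TNFRSF18 (GITR), TNFRSF13B (TACI), TNFRSF13C (the BAFF receptor) and TNFRSF17 (BCMA) had none in any library. They still had 1 or 2 sites each at their loci. Several of these lay at a neighbor: the TNFRSF9 site, in 4 EtOH and 6 TAM libraries the most regular site of all, was at the promoter of PARK7, and the TNFRSF17 site was at the promoters of NPIPB2 and SNX29.

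**Figure D4:**
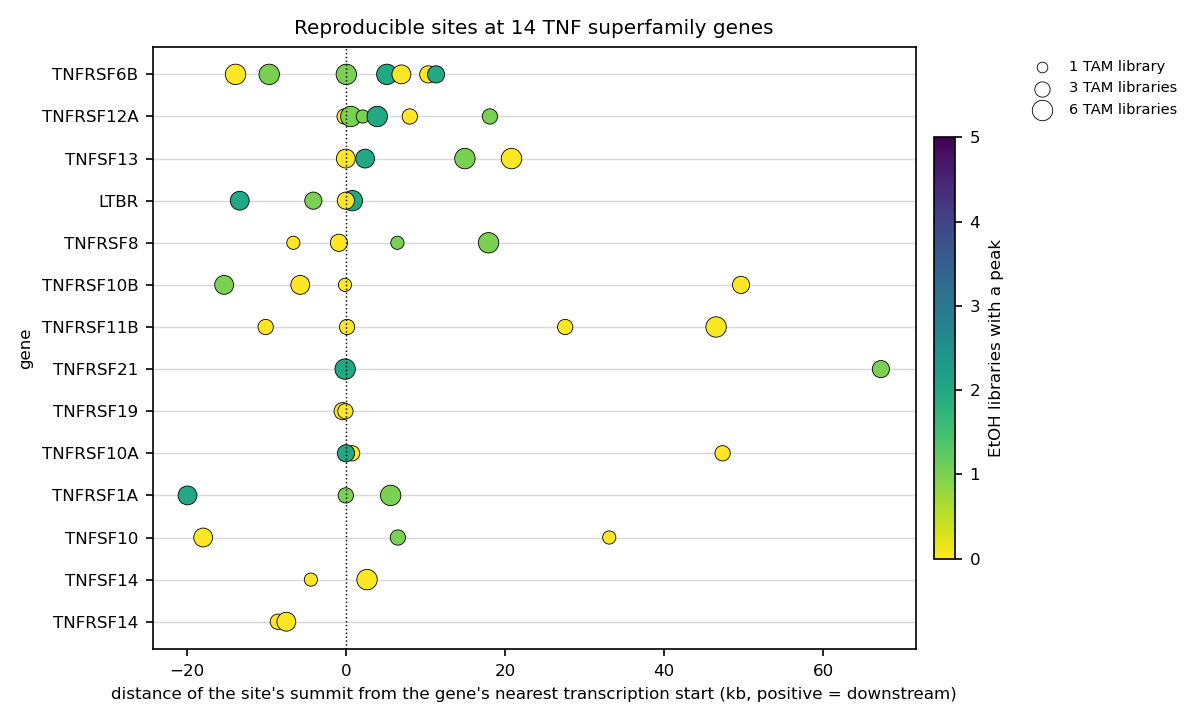
Merged sites at 14 family genes, placed by the distance of the summit from the gene's nearest transcription start in kb, with downstream to the right. Circle size is the number of TAM libraries with a peak and color the number of EtOH libraries. TNFRSF6B has 7 sites within 14 kb of its start, while those of TNFRSF14 are all upstream.

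Among the ligands, 5 of 18 promoters had a peak in at least 1 library, which were those of CD70, TNFSF9, TNFSF12, TNFSF13 and the read-through TNFSF12-TNFSF13. CD40LG, TNFSF11 (RANKL), TNFSF13B (BAFF) and TNFSF18 (the GITR ligand) had no peak at the locus in any of the 11 libraries. They were the family genes without a locus peak, 8.89% of the family against 11.7% of all genes. FASLG, TNFSF4 (the OX40 ligand), TNFSF8 (the CD30 ligand) and TNFSF15 had 1 to 3 TAM libraries with a peak and no merged site. TNFSF9 (the 4-1BB ligand) had a promoter peak in 5 TAM libraries, and CD70, the ligand of CD27, in 3.

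TNFSF13 (APRIL) lies at chr17:7461609-7464925. It had 1 and 1 locus peaks for S100A8 and 0, 0 and 3 for S100A9 in EtOH, and 9, 6 and 4 for S100A8 and 2, 6 and 6 for S100A9 in TAM. TNFSF12-TNFSF13 had the same number in each library. The S100A9 treatments overlapped because of replicate 3 in EtOH with 3 and replicate 1 in TAM with 2. Of the 4 sites, 1 was at the TNFSF13 promoter, 46 bp before its start, in 5 TAM libraries, and the others were at the promoters of SENP3, EIF4A1 and CD68. The site near SENP3, one of 2 called in 7 libraries, had fold enrichments of 8.35 and 7.23 for S100A8 in EtOH. In TAM it had 13.5, 10.3 and 10.4 for S100A8 and 11.9 and 10.1 in replicates 2 and 3 of S100A9.

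TNFSF10 (TRAIL), the ligand of TNFRSF10A and TNFRSF10B, lies at chr3:172223298-172241265. It had no locus peak for S100A8 and 0, 0 and 1 for S100A9 in EtOH. TAM gave 1 in each S100A8 library and 2, 2 and 3 in the S100A9 libraries. Its site 17985 bp upstream, printed above with an AP-1 match, was called in 5 TAM libraries and in no EtOH library, with fold enrichments from 7.41 to 14.2. TNFSF14 (LIGHT), the ligand of TNFRSF14 and LTBR, had no peak in EtOH, and in TAM 1 in each S100A8 library and 3, 1 and 2 in the S100A9 libraries. An intronic site 2629 bp after a start was in all 6 TAM libraries at 6.59 to 18.6, with the highest value in replicate 2 of S100A8.

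TNF, LTA and LTB are neighbors on chromosome 6 and had no promoter peak in any library. TNF, the founding cytokine of the family, had locus peaks of 1 and 0 for S100A8 and 1, 0 and 0 for S100A9 in EtOH, and of 0, 3 and 3 for S100A8 and 1, 1 and 2 for S100A9 in TAM. The site that these 3 genes share, in 1 EtOH and 4 TAM libraries, lay over coding sequence of LTB.

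The number of locus peaks was then compared between TAM and EtOH for every gene, as the mean difference within each protein averaged over both proteins. An exact permutation test swapped the treatment labels within each protein, which allows 200 arrangements and a smallest two-sided p of 0.01. The difference was above 0 at 41 of 45 family genes (91.1%), against 87.5% of all genes, and was 0 at the 4 family genes without peaks. The median difference was 1.33 peaks for the family and 1.25 for all genes. At a Benjamini-Hochberg adjusted p of at most 0.05, 7 of 45 family genes (15.6%) were higher in TAM, against 24.6% of all genes, and 0 family genes were lower, against 0% of all genes. The 7 genes were TNFRSF6B with a difference of 6.5 peaks, TNFRSF12A with 4.08, TNFRSF1A with 3.00, TNFRSF11B with 2.50, TNFRSF14 with 2.00 and both TNFSF10 and TNFSF14 with 1.5. Each of them had an exact permutation p of 0.01 and an adjusted p of 0.0407, which is the smallest this design gave. For the 7 genes the TAM and EtOH libraries did not overlap within either protein, which held for all 4939 genes called and for no other gene. At an unadjusted exact permutation p below 0.05 there were 22 of 45 family genes and 9724 of all 20098 genes, which are similar shares.

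This difference moved with the length of the lists. Per 10000 peaks of its library, the peaks at family loci numbered 27.4 ± 9.42 (SD, n = 5) in EtOH, from 10.8 to 33.4, and 27.2 ± 1.39 (SD, n = 6) in TAM, from 25.3 to 29.4. In 4 of 5 EtOH libraries the value was above that of every TAM library, and the medians were 30.4 in EtOH and 27.3 in TAM. The lowest EtOH value was that of replicate 2 of S100A9, which had 2 peaks at family loci of 1853. With the same number of top peaks taken from every library, 0 family genes and 0 of all genes were called by the exact permutation test. No family gene then had an unadjusted p below 0.05. Lists this short leave few peaks at a locus. The shortest list, with 1853 peaks, had a locus peak at 13.8% of all genes. Every called gene had TAM above EtOH in each protein without overlap, which so few peaks hardly allow, so these counts decide nothing about list length. Leaving out any 1 library also left 0 family genes and 0 of all genes called. The smallest p possible rises when a library is left out, so that count says nothing about list length. Scaled by list length, the difference turned negative at TNFRSF6B, TNFRSF12A and TNFRSF1A and remained positive at TNFRSF11B, TNFRSF14, TNFSF10 and TNFSF14, with none called.

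Of the 77 sites at family loci, 76 were called in more TAM than EtOH libraries. A site had to be called in at least 2 replicates of a group, and the TAM lists were longer, so most sites entered through TAM. The direction of the counts in this paragraph is therefore no independent evidence about the treatment. No EtOH library called 45 of the 77 family sites (58.4%), against 68.9% of all sites. All 6 TAM libraries called 18 (23.4%), against 14.3% of all sites. In the same exact permutation test on each site's calls, 0 family sites reached an adjusted p of 0.05, against 0% of all sites, and the smallest adjusted p was 0.213. At an unadjusted exact permutation p below 0.05 there were 20 family sites (26%) and 5456 sites in all (18.0%), each more often called in TAM.

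No difference between S100A9 and S100A8 was detected at these genes. The median difference in locus peaks between the proteins was 0, with 21 family genes higher for S100A9, 17 higher for S100A8 and the rest equal. By the exact permutation test within treatments, 0 family genes were called at an adjusted p of 0.05, against 0% of all genes. At an unadjusted exact permutation p below 0.05 there were 0 family genes and 97 genes in all.

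By position, 18 of the 77 sites were at a family promoter, 14 were at the promoter of another gene only and 45 were distal. At 51 sites the nearest transcription start was that of a family gene, and 9 sites were counted at more than 1 family gene. Within 100 bp of the summit, AP-1 was matched at 20 of 45 distal sites (44.4%) and at 2 of 32 promoter sites, against 34.6% of all distal sites and 6.38% of all promoter sites. KLF/SP1 was matched at 9 of the 32 promoter sites (28.1%), against 24.5% of all promoter sites, and at 6 distal sites (13.3%), against 4.20% of all distal sites. The ETS motif CGGAAG was matched at 4 of the promoter sites (12.5%), against 27.1% of all, and the CREB motif TGACGTCA at 0 family sites, against 2.68% of all promoter sites. Both strands were searched, and a match of letters is not evidence that a factor was there.

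The genes that act behind these receptors often had promoter peaks. Of 26 adaptors, kinases, ubiquitin ligases and caspases of the pathway, 23 had a promoter peak in at least 1 library, where 61.1% of all genes had one. A peak was found at 13 (50%) in at least 1 EtOH library, against 29.0% of all genes, and at 6 (23.1%) in all 6 TAM libraries, against 13.9%. These differences were not tested. The promoter of SHARPIN, a subunit of the linear ubiquitin ligase complex, had one in every library, 5 in EtOH and 6 in TAM. After SHARPIN, peaks were most frequent at MAP3K5, a stress kinase, with 2 EtOH and 6 TAM libraries. MAP3K14, the kinase that starts the noncanonical NF-kB pathway, had 3 and 4, and BIRC2, an inhibitor of apoptosis that ubiquitinates RIPK1, had 2 and 5. CFLAR, BIRC3 and TNFAIP3, all inhibitors of death or NF-kB signaling, each had 1 and 6. In the comparison of locus peaks, 6 of the 26 (23.1%) were higher in TAM at an adjusted exact permutation p of 0.0407, near the 24.6% of all genes. They were FADD, RIPK1, TRAF2, TRAF4, CASP8 and SHARPIN, and 0 were lower.

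Genes that mark cell types were scored in the same way. Of 6 genes of basal epithelium, the kind of cell that MCF-10A resembles, 5 had a promoter peak in at least 1 library and 5 were called higher in TAM. Of 6 leukocyte genes, 2 had a promoter peak and 3 were called, and of 6 fibroblast genes, 3 and 1. Over all genes 61.1% had a promoter peak and 24.6% were called. Loci of genes that mark other cell types therefore also had peaks. A peak is not expression, which these lists do not measure, and so a peak at a family gene best known from leukocytes does not show that the gene was expressed here.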

How the data were processed

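Anti-Flag ChIP-seq peak lists of 11 libraries were used, grouped by the labels. Per the labels and the study's methods, the authors mapped reads with Bowtie2 (hg19), used those that mapped uniquely, and ran MACS2 with input chromatin as the background (versions not given in the sources used here), with 1 list deposited for each library. Input and Pol II libraries were not analysed here. The deposited values are the fold enrichment (a ratio over background), −log10 of the q value, and the summit position. Lists held peaks to a q value of about 0.05, and −log10 q of at least 7 was required. Genes, starts and bodies came from GENCODE 44 lifted to GRCh37, on chromosomes 1 to 22 and X. Read numbers are unknown from the lists, so no interval for depth was given. Labels call the replicates biological.

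Loci were compared by exact permutation of labels within the other factor with Benjamini-Hochberg adjustment over all genes or sites. This was done in Python 3.11.15 with NumPy 2.4.6 and pandas 2.3.3. The test was checked on simulated peak numbers that did not carry the difference in list length between treatments, so the check does not cover it. Merged sites needed overlap by 1 bp and at least 2 replicates of a group. Values in every library are given for members with a promoter peak in at least 6 libraries, for the 8 with most sites and, chosen after their values were seen, for those called and for TNF. For the values of a named site, the site called in most libraries was taken. Values are also given for promoter sites and for printed sites with an AP-1 match, the latter chosen after their values were seen. The family, gene lists and thresholds were chosen with earlier results of these data known, and the CpG ratio and printed sequences after the data were seen. Same-numbered libraries did not deviate together (correlations of -0.0167 to 0.00489), so the numbers were not used as pairs. Alternatives were other q thresholds, list lengths, windows and starts, leaving out libraries, and a replicate block.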

Additional observations from a re-analysis of the deposited data

How the results depend on the processing

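The number of family genes called higher in TAM, 7 of 45 where 4939 of 20098 genes were called in all, changed with the settings. It was 26 (8779 in all) with every peak as deposited and 34 (12246) with 50 kb around the gene. It was 0 (0 in all) with q at most 1e-10, without the flank and per 10000 peaks of the library. It was also 0 (0 in all) with the shortest and longest list left out, a setting chosen after seeing the data. An equal number of top peaks (1853 a library) gave 0 (0 in all) too, but left too few peaks at a locus for calls to be likely. Leaving out each library in turn gave 0 to 0 of both, since the smallest exact permutation p then rose to between 0.0167 and 0.025. With the gene's 5′ end as its only start the counts were equal, which was fixed in advance. That setting only moves peaks between promoter, body and flank and leaves their sum unchanged. The replicate block gave 0 and 0, since its smallest exact p is 0.0625, and it changed no call between the proteins (0) or over sites (0). The comparison of proteins and that of sites gave 0 calls under every alternative, with 0 to 0 when each library was left out.

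Some differences between TAM and EtOH turned negative. With equal numbers of top peaks they were -0.25 for TNFRSF21, TNFSF13 and TNFSF12-TNFSF13 and -0.75 for LTBR. Per 10000 peaks they were -0.66 for TNFRSF21, -0.29 for TNFRSF10A, -0.52 for TNFRSF1A, -2.45 for LTBR, -0.51 for TNFRSF19, -1.20 for TNFRSF12A, -0.43 for TNFRSF6B and -0.18 for both TNFSF13 and TNFSF12-TNFSF13.

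Confident family promoters in TAM, 11 for S100A8 and 14 for S100A9, became 7 and 9 with q at most 1e-10, 0 and 0 with equal top peaks, and 4 and 7 when every replicate was required. For S100A8 they were 19 as deposited and 18 with at least 1 replicate, and for S100A9 they were 9 with the 5′ end only. In EtOH, 0 for both, they became 2 and 7 as deposited and 3 and 8 with at least 1 replicate, and 1 for S100A8 with 1000 bp on either side. Leaving out 1 library gave 5 to 8 for S100A8 in TAM (5 without replicate 1, 6 without replicate 3). For S100A9 it gave 7 to 12 in TAM (7 without replicate 2, 9 without replicate 3) and 0 to 0 in EtOH. The rule of at least 2 replicates then required every remaining library, so these counts follow a stricter rule. Shares of all genes under these settings are not given here, so the changes cannot be read as particular to the family.

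Confident family loci in EtOH, 8 for S100A8 and 6 for S100A9, became 1 and 1 with q at most 1e-10, 20 and 31 as deposited, 1 and 2 with equal top peaks and 3 and 1 without the flank, and 14 for S100A9 with 50 kb. In TAM, 34 and 37, they became 6 and 4 with equal top peaks and 20 and 24 without the flank. Leaving out 1 library gave 24 to 29 for S100A8 and 32 to 36 for S100A9 in TAM. For S100A9 in EtOH it gave 0 to 4 (0 without replicate 1, 2 without replicate 3). Here too every remaining library had to have a peak, and shares of all genes are not given. For S100A8 in EtOH, leaving out a library leaves 1 library, so no value was given. AP-1 at distal family sites was matched at 33.3% within 50 bp in place of 44.4%, against 26.0% in place of 34.6% of all distal sites.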
